A study of Homo sapiens with 2 samples.

Results

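The genes described here are the core of the Wnt pathway: its secreted ligands, the enzyme that processes them, their receptors, their secreted antagonists, and the Dishevelled, destruction complex and TCF proteins inside the cell. They were chosen by gene symbol, with a value required on at least 1 array. The symbols were WNT, FZD, SFRP, DKK or DVL followed by a number, those starting with TCF7, and 14 further named genes. This rule was set with earlier results of these data known. The rule gave 51 probes of 49 genes, out of 24267 probes in the table. Of these probes 50 carried the symbol as listed on the array, and 1 was listed as C2orf31, which RefSeq gives as a synonym of FZD5. A further 8 probes matched by symbol but had no value on either array: those of DKK2, DKK4, FRAT1, LEF1, NKD1, SFRP4, TCF7L2 and WNT8A.

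The study asked how lowering or raising CD26, the cell surface peptidase encoded by DPP4, alters gene expression in mesothelioma cells. A first array set ACC-MESO1 cells, an established mesothelioma line, depleted of CD26 by transfection of an interfering RNA (called siRNA in one label and shRNA in another) against control ACC-MESO1 cells. A second set MSTO-211H cells, another established mesothelioma line, transfected with CD26 in the vector pLNCX2 against control MSTO-211H cells. The labels do not say what the controls received or whether the transfected cells were a clone. Every value is a log2 ratio of manipulated over control cells from 1 array, so no error between replicates, standard error or p-value can be given. On both arrays Cy5 carried the control and Cy3 the manipulated cells, with no dye swap, so a dye effect on a gene and a change with CD26 cannot be told apart.

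Over all 10347 named genes of the depletion array and 9359 of the transfection array, the median log2 ratios were 0.01 and 0.01. The only repeat measurement was between different probes of a gene, with a pooled SD of 0.42 over 566 genes and 0.45 over 471 genes. The SD over all probes was little larger, 0.48 and 0.50, so a value beyond the SD between probes is not unusual. DPP4 itself stood at -3.92 and 5.51, in the direction of the labels. Ratios give no levels, so whether a gene was strongly or weakly expressed is not known here. As the nearest check of cell type, 16 of 16 mesothelial markers on the array gave a ratio after depletion and 15 of 16 after transfection. Lymphocyte markers did so in 3 and 4 of 10 cases, and myeloid markers in 4 and 3 of 7. Fibroblast markers did so in 9 and 7 of 10 cases, and endothelial markers in 6 and 5 of 8. Of all 24267 probes, 19622 had a value after depletion and 17737 after transfection. The reason why some probes carry no value is unstated, so these counts do not establish cell type. The mesothelial median was 0.03 and 0.10. The mesothelial markers past 2-fold were ITLN1 (1.38) and GATA4 (-2.10) after depletion, and MSLN, mesothelin (-1.31), and KRT18 (-1.16) after transfection. The part of these markers in the results below was not tested.

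Wnt proteins are secreted lipid-modified ligands that bind a Frizzled receptor together with the co-receptor LRP5 or LRP6. In the canonical branch this recruits Dishevelled and stops the destruction complex of AXIN, APC and GSK3B from marking beta-catenin, the product of CTNNB1, for degradation. Beta-catenin then acts with TCF and LEF factors on target genes, among them AXIN2, which feeds back as an inhibitor. Other Wnt ligands act through planar polarity and calcium branches, and SFRP, DKK and WIF proteins antagonise the ligands or receptors outside the cell.

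In the CD26-depleted cells, 5 of the 49 genes were past 2-fold (10.2%), beside 4.86% of all genes on that array. Of these 4 were lower (8.16%), beside 1.56% of all genes, and 1 was higher (2.04%), beside 3.31%. The 4 lower genes were the ligands WNT7B and WNT10A, the feedback inhibitor AXIN2 and the GSK3-binding protein gene FRAT2, and the higher one was PORCN, the enzyme that attaches the lipid to Wnt ligands. WNT10A, AXIN2 and FRAT2 had no value on the transfection array. They are 3 of the 7 member genes measured on the depletion array alone (42.9%). Among all 1391 such genes 13.2% were past 2-fold in either direction, and 3.24% were at least 2-fold lower. Of the 42 members with a value on both arrays, 2 were past 2-fold after depletion (4.76%), beside 3.56% of all 8956 such genes. The members' median was -0.08, beside 0.01 over all genes.

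In the CD26-transfected cells, 3 of 42 genes were past 2-fold (7.14%), beside 5.46% of all genes, or 4.28% of all genes measured on both arrays, as these 42 were. Of these 2 were higher (4.76%), beside 4.09% of all genes, and 1 was lower (2.38%), beside 1.37%. WNT7B and PORCN were the higher genes, and DKK3, a secreted member of the Dickkopf family, was the lower one. The shares in each direction lie near those of all genes. The members' median was -0.08 here too, beside 0.01. The plot of all members by role shows both values of each gene.

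**Figure D1:**
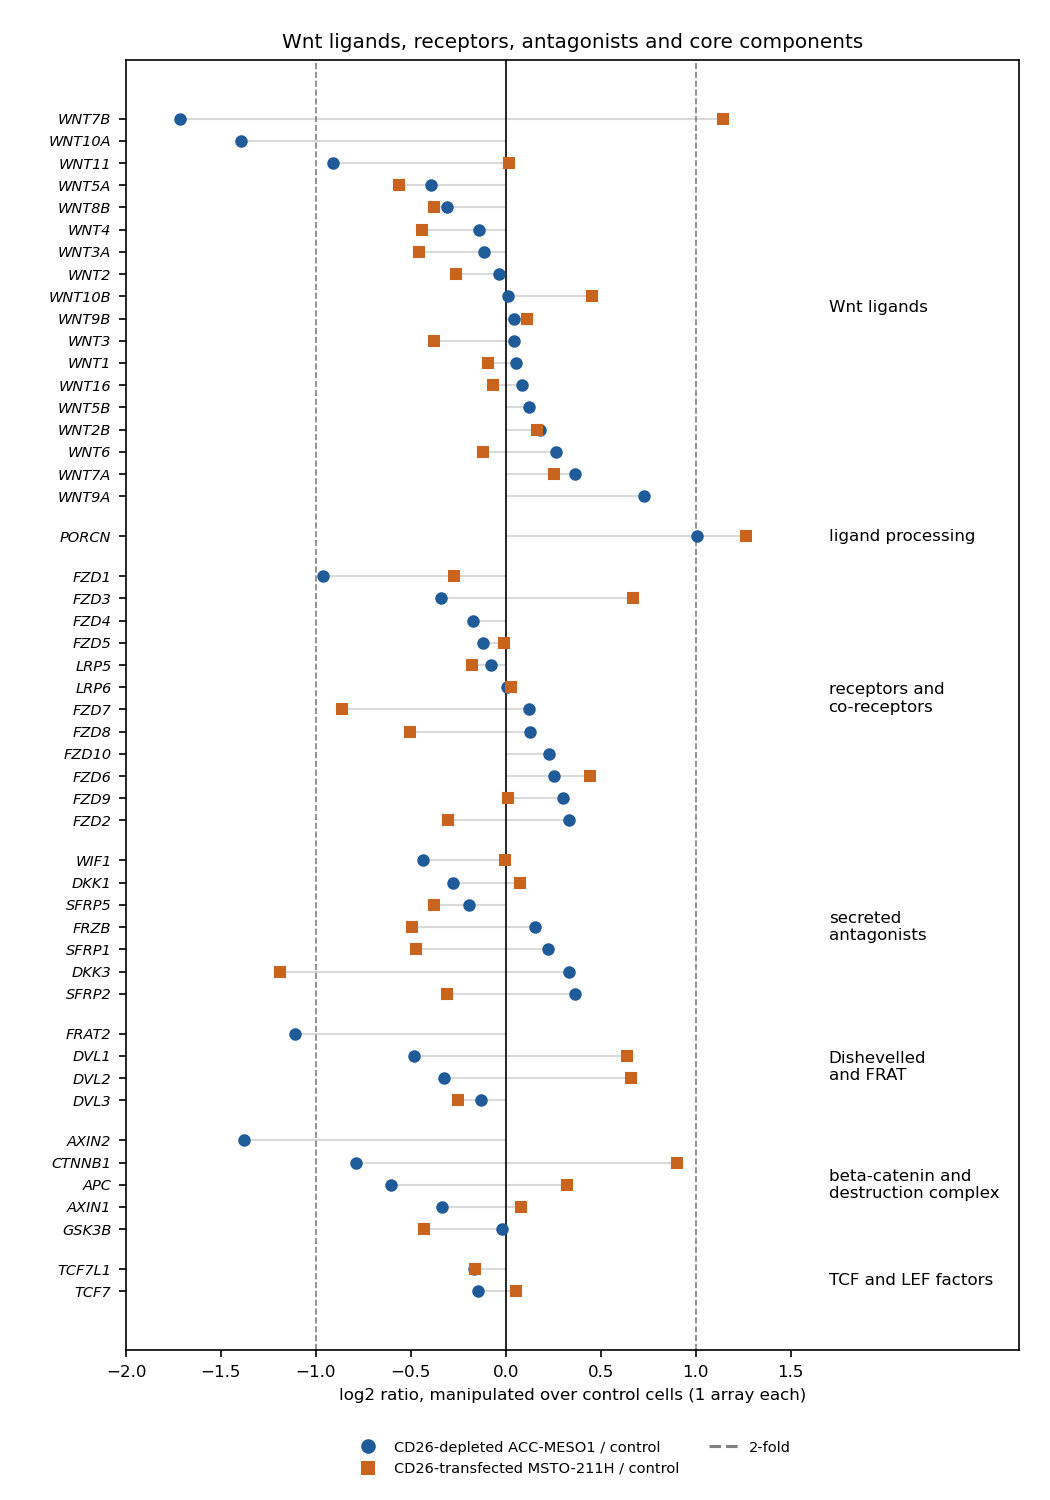
Log2 ratio of each of the 49 Wnt pathway genes (x axis, 1 array per comparison), grouped by role, for CD26-depleted ACC-MESO1 cells (circles) and CD26-transfected MSTO-211H cells (squares). A gene with no square had no value on the transfection array, dashed lines mark 2-fold, and WNT7B spans from -1.71 to 1.14 while PORCN lies at or beyond 1 on both.

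WNT7B lay farthest from 0 among the 18 Wnt ligands measured after depletion and among the 15 measured after transfection. Its single probe read -1.71 in depleted ACC-MESO1 cells, which is 3.28-fold lower and the 13th lowest of 10347 genes. The same probe read 1.14 in transfected MSTO-211H cells, which is 2.21-fold higher and in 274th place from the top of 9359 genes. It was the 1 member past 2-fold on both arrays with signs following DPP4. Over all genes measured on both arrays, 0.134% (12 of 8956) were in that class. In the reverse class, higher after depletion and lower after transfection, there was no member, beside 0.0558% of all genes. Its close paralog WNT7A read 0.37 and 0.25, on the same side of 0 on both arrays and within the spread between probes. The 5 genes nearest to WNT7B in their pair of log2 ratios, among 8955 others, were the cytochrome P450 gene CYP1B1 (distance 0.214; -1.67 and 0.93), CABLES1 (0.348; -1.57 and 1.46), KLHL9 (0.351; -1.70 and 0.79), NET1 (0.425; -1.29 and 1.18) and the transcription factor gene GATA4 (0.434; -2.10 and 0.95), also one of the mesothelial markers above. This nearness is over 2 values per gene and describes their size only.

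WNT10A, a ligand of the canonical branch, read -1.40 after depletion, 2.63-fold lower and the 34th lowest gene. WNT11, a ligand best known for the polarity branch, read -0.91 after depletion and 0.02 after transfection. WNT9A stood at the other end, at 0.73 after depletion with no value after transfection. WNT5A, a ligand best known for the non-canonical branches, read -0.39 and -0.56, below 0 on both arrays. Its paralog WNT5B read 0.12 after depletion.

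The other 12 ligands were all short of 2-fold. After depletion they ran from WNT8B (-0.31) to WNT7A (0.37), all within the SD of 0.42 between probes of a gene. Among those measured after transfection the range was from WNT3A (-0.46) and WNT4 (-0.44) to WNT10B (0.46), of which WNT3A and WNT10B were just beyond the SD of 0.45. The 18 ligands together had a median of 0.03 after depletion and, for the 15 measured, -0.09 after transfection. The order among these 12 is not resolved by these arrays.

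PORCN encodes the endoplasmic reticulum acyltransferase without which Wnt ligands are poorly secreted. It read 1.01 after depletion (2.01-fold higher, barely past the threshold) and 1.27 after transfection (2.41-fold higher). Both values came from 1 probe and had the same sign although CD26 moved in opposite directions. With no dye swap on either array, a dye effect on this probe and a change in PORCN cannot be told apart. Over all genes measured on both arrays, 0.335% (30 of 8956) were past 2-fold with the same sign.

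**Figure D2:**
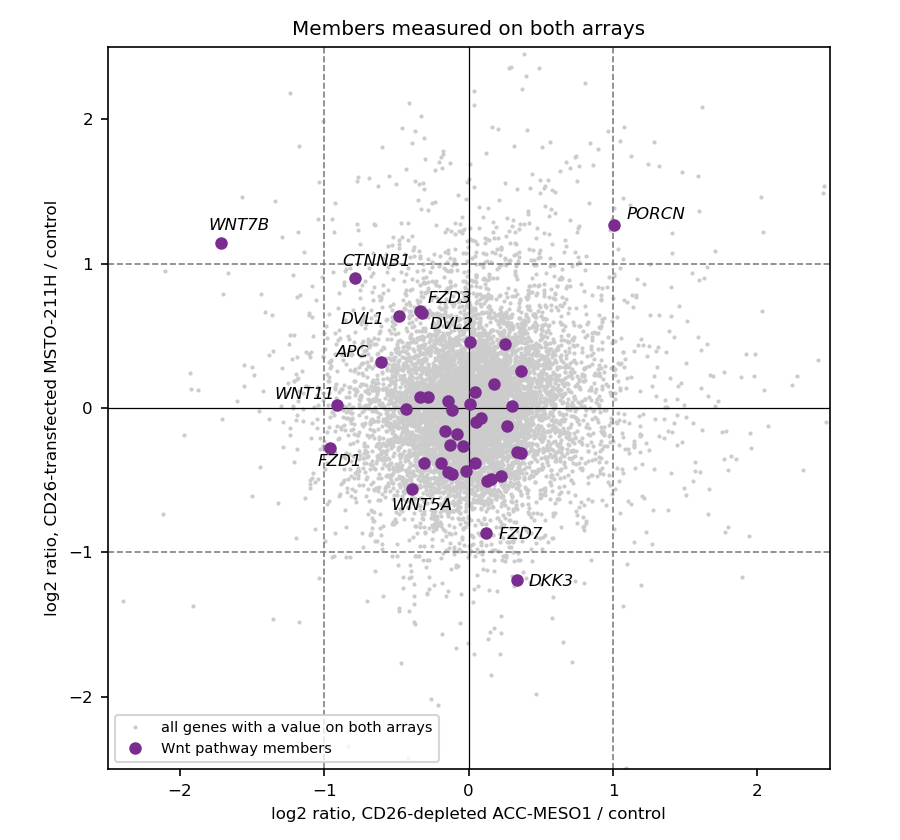
Log2 ratio in CD26-depleted ACC-MESO1 cells (x axis) against log2 ratio in CD26-transfected MSTO-211H cells (y axis), 1 array each, for the 42 Wnt pathway genes with both values (large points) over all 8956 genes with both values (small grey points, those beyond 2.5 in size not drawn). Dashed lines mark 2-fold; WNT7B (-1.71 and 1.14) is alone among members in the upper left corner and PORCN (1.01 and 1.27) alone in the upper right.

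Promoter sequences of the genes past 2-fold are shown because AXIN2 and DKK1 are classical targets of TCF factors, whose binding core can read CTTTGA. Other forms of this core were not searched for, so the capitals and shares below cover these letters only. The RefSeq promoter windows (GRCh38.p14, 250 bases before to 50 after a start) covered 37 of the 49 members with 43 windows. WNT7B, AXIN2 and DKK3 have no window in that table. The 250 bases before the start of the 3 genes past 2-fold that have one, and of DKK1, are printed 5′ to 3′ along the gene, with CTTTGA or its reverse complement TCAAAG in capitals.
WNT10A, chr2:218880602-218880851, + strand: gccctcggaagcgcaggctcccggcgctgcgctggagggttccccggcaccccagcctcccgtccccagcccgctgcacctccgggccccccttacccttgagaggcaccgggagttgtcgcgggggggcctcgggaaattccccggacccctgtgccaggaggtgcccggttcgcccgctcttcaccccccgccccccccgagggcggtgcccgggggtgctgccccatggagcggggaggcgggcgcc
FRAT2, chr10:97334730-97334979, - strand: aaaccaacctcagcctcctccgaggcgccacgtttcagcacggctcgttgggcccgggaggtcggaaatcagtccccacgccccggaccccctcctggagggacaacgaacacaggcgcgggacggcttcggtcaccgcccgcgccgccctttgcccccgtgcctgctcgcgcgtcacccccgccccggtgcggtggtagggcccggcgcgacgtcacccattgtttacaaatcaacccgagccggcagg
PORCN, chrX:48508742-48508991, + strand: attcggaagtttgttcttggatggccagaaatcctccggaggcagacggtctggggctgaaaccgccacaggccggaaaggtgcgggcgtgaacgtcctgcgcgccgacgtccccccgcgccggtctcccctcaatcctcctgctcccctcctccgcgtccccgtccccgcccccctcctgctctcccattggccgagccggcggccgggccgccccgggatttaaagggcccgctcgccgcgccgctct
DKK1, chr10:52314031-52314280, + strand: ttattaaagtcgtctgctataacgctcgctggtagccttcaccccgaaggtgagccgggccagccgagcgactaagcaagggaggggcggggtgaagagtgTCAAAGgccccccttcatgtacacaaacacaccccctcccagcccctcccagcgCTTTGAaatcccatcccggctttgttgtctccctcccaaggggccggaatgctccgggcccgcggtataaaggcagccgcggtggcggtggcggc
DKK1 held both orientations, TCAAAG starting at -149 and CTTTGA at -95 relative to its start. PORCN has a second start in the table, and the 30 bases that end just before it, chrX:48509754.0-48509783.0, + strand, hold the letters with their first base at -9: cccgctccctctgtgtccctgCTTTGAcag. The windows of WNT10A and FRAT2 did not contain them. Of the members' windows 2 of 43 contained CTTTGA on either strand (4.65%), beside 12.9% of all 35116 windows and 10.3% of the 12618 windows of genes measured here. The members' windows had a median GC content of 71%, beside 58.7% over all windows. A match is a description of the letters and does not show that a factor binds there.

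The receptors and co-receptors had 0 of 12 past 2-fold after depletion, beside 4.86% of all genes. After transfection 0 of 10 were past it, beside 5.46%. With so few genes, these counts lie near the shares over all genes. Among the 12 receptor and co-receptor genes, FZD1 came nearest after depletion (-0.96, 1.95-fold lower), with -0.27 after transfection. FZD7 came nearest after transfection (-0.86, 1.82-fold lower), with 0.12 after depletion. FZD3, linked to planar polarity, read -0.34 and 0.67, and FZD6, from the same subgroup, read 0.25 and 0.44. FZD8 read 0.13 and -0.50. These transfection values of FZD7, FZD3 and FZD8 exceeded the SD of 0.45 between probes.

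The co-receptors LRP5 (-0.08 and -0.18) and LRP6 (0.01 and 0.03) lay near 0 on both arrays. FZD2 (0.33 and -0.31), FZD9 (0.30 and 0.01) and FZD5 (-0.12 and -0.01) lay within the spread between probes. FZD5 was the mean of 2 probes, which read -0.14 and -0.10 after depletion and -0.07 and 0.05 after transfection. FZD4 (-0.17) and FZD10 (0.23) were measured after depletion alone. The receptors' medians were 0.06 and -0.09.

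The secreted antagonists were mostly below 0 in the transfected cells. Of the 7 measured, 6 were below 0 there, with a median of -0.38, beside 49.3% of all genes below 0. With values centred on ribosomal protein genes 5 of 7 were below 0, beside 26.9% of all genes, and DKK3 was then short of 2-fold. After depletion 3 of 7 were below 0, with a median of 0.15, beside 48.7% of all genes. DKK3 read -1.19 after transfection (2.28-fold lower, the 69th lowest gene) and 0.33 after depletion. Unlike DKK1, DKK3 is not an established inhibitor of the LRP co-receptors.

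The Frizzled-related antagonists FRZB (0.15 and -0.49), SFRP1 (0.22 and -0.47), SFRP2 (0.37 and -0.31) and SFRP5 (-0.19 and -0.38) were all below 0 after transfection. FRZB and SFRP1 were beyond the SD between probes there, and SFRP2 and SFRP5 were not. All 4 stayed below 0 with the values centred on ribosomal protein genes, with a median of -0.21, beside 26.9% of all genes below 0. FRZB (-0.28) and SFRP1 (-0.25) were then within the SD between probes. DKK1 read -0.28 and 0.07. WIF1, which binds Wnt ligands directly, read -0.43 and -0.01. With the ribosomal centring DKK1 and WIF1 were above 0 after transfection (0.29 and 0.21).

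Inside the cell, the Dishevelled, FRAT, beta-catenin and destruction complex genes lay below 0 after depletion. This pairing of groups was made after their values were seen. All 9 measured were below 0, with a median of -0.48, beside 48.7% of all genes. Of these, GSK3B (-0.02), DVL3 (-0.13), DVL2 (-0.33) and AXIN1 (-0.34) were within the SD of 0.42 between probes. With values centred on ribosomal protein genes, 6 of 9 were below 0, beside 17.8% of all genes, and GSK3B, DVL2 and DVL3 were above it. After transfection 5 of 7 were above 0, with a median of 0.32, beside 50.7% of all genes. With the ribosomal centring the count was again 5 of 7 (71.4%), but 73.1% of all genes were then above 0.

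Beta-catenin, CTNNB1, read -0.79 after depletion (1.72-fold lower) and 0.90 after transfection (1.87-fold higher). It was short of 2-fold on both arrays and beyond the SD between probes on both, with signs following DPP4. Each value came from 1 probe, and values beyond that SD are not unusual on these arrays. The share of all genes with such a pair of values was not computed. The scaffold AXIN2 read -1.38 after depletion, 2.60-fold lower and the 37th lowest gene, while its constitutive paralog AXIN1 read -0.34 there and 0.08 after transfection. APC, the tumour suppressor of the complex, read -0.60 and 0.32. The kinase gene GSK3B read -0.02 and -0.43. Plakoglobin, JUP, another catenin, read -0.41 and -0.48, and the catenin CTNND1 read -0.11 and -0.08, each below 0 on both arrays. Both were named after their values were seen, and further catenins are not given here.

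DVL1 read -0.48 after depletion, the mean of probes at -0.20 and -0.77. Only the probe at -0.77 had a value after transfection, and it read 0.64. DVL2 read -0.33 and 0.66, and DVL3 read -0.13 and -0.25. FRAT2 read -1.11 after depletion, 2.16-fold lower. The TCF factors lay near 0, with TCF7 at -0.14 and 0.05 and TCF7L1 at -0.17 and -0.16.

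Over the 42 members measured on both arrays, 21 had opposite signs (50%), beside 46.9% of all genes. Of these, 10 were lower after depletion and higher after transfection and 11 the reverse. Another 8 were above 0 on both arrays and 13 below 0 on both. These counts include values close to 0.

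The wider pathway was described through lists of genes other than the members. These lists were chosen with earlier results of these data known. Among co-receptors and extracellular modulators, 0 of 19 were past 2-fold after depletion, beside 4.86% of all genes. After transfection 2 of 18 were at least 2-fold higher (11.1%), beside 4.09%. Those 2 were KREMEN1, a receptor for DKK proteins (1.69, with no value after depletion), and the polarity co-receptor PTK7 (1.18, with 0.47 after depletion). The list medians were 0.01 and 0.14. The extremes after depletion were DKKL1 (0.79) and LGR6 (-0.70), and ROR1 (-0.55) was lowest after transfection.

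Among intracellular and nuclear components, 0 of 49 were past 2-fold after depletion, beside 4.86% of all genes, and 5 of 45 were at least 2-fold higher after transfection (11.1%), beside 4.09% of all genes. These were the Dishevelled-binding inhibitor DACT1 (1.73), CTNNBIP1, an inhibitor of the contact between beta-catenin and TCF (1.68), the ubiquitin ligase subunit FBXW11 (1.52), the AXIN-modifying tankyrase TNKS (1.30) and the Dishevelled inhibitor NKD2 (1.10). DACT1, like KREMEN1, was measured on the transfection array alone, and among all 403 such genes 31.8% were past 2-fold. CTNNBIP1 read 0.86 after depletion, the highest of the list there, and USP34 read -0.91, the lowest. TLE5 (-0.63) was lowest after transfection. The list medians were -0.10 and 0.08.

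The polarity and calcium branch list had 0 of 34 past 2-fold after depletion, beside 4.86% of all genes. After transfection 1 of 32 was higher, CAMK2D (1.12), and 1 lower, CAMK2A (-1.05), both subunits of a calcium-dependent kinase. Together these are 6.25% of the list, near the 5.46% of all genes. CAMK2D was also the highest after depletion (0.68), and ROCK1 was the lowest there (-0.87). The medians were -0.03 and -0.02.

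Genes reported elsewhere as targets of beta-catenin and TCF had a median of 0.43 after depletion, beside 0.01 over all genes, or 0.76 beside 0.34 with values centred on ribosomal protein genes. Of 46 measured, 7 were at least 2-fold higher (beside 3.31% of all genes) and 1 at least 2-fold lower (beside 1.56%). With the ribosomal centring 15 were higher and 0 lower, beside 7.64% and 0.416% of all genes. As deposited, the higher ones were the tight junction gene CLDN1 (2.32), the cyclins CCND1 (1.95) and CCND2 (1.77), the urokinase receptor PLAUR (1.69), S100A4 (1.15), SOX9 (1.05) and the AP-1 subunit JUN (1.03), and the lower one was the securin gene PTTG1 (-1.10). Most of these genes are also known to respond to other pathways. Like the other lists, this one was chosen with earlier results of these data known, so its median and counts are a description only. After transfection the median was 0.00, and of 41 measured 1 was past 2-fold, the homeobox gene MSX2 (1.65), while TERT (-0.96) was the lowest. AXIN2, at -1.38 after depletion, thus lay on the other side of 0 from most of the list, and ZNRF3, another feedback inhibitor, read 0.17 and 0.28.

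**Figure D3:**
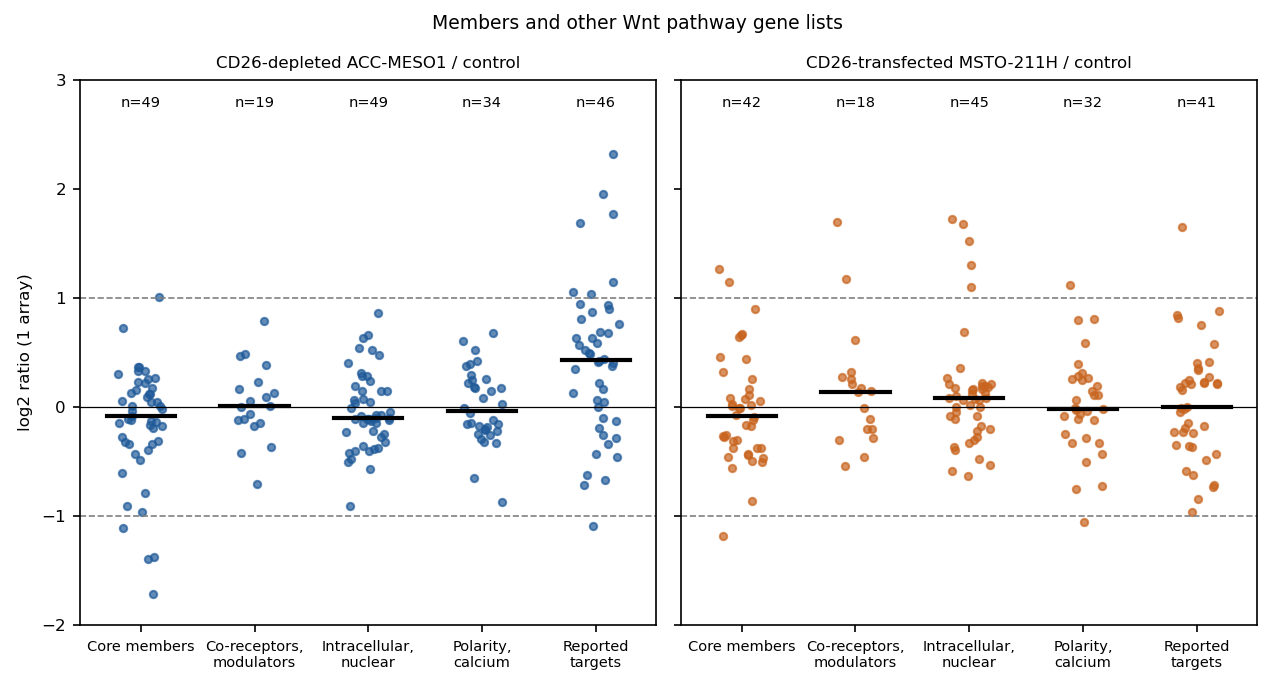
Log2 ratios (y axis, 1 array per panel) of the members and of 4 further lists of Wnt pathway genes in CD26-depleted ACC-MESO1 cells (left) and CD26-transfected MSTO-211H cells (right); points are genes, with horizontal jitter, thick lines are medians, and dashed lines mark 2-fold. The reported targets have the highest median on the left (0.43), while on the right the medians lie between -0.08 and 0.14.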

How the data were processed

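Each array was a 2-colour hybridisation of amplified total RNA. The deposited values are normalized log2 ratios, manipulated over control cells, per the labels' sample descriptions. RNA was extracted with TRIZOL and labelled after amino allyl amplification, per the labels' protocols. The scanner, the background correction, the normalization and the reason why some probes carry no value are unstated in the labels and headers used here, and channel intensities were not used here.

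Of 24267 probes, 13395 had 1 listed gene symbol and none had several. Symbols were updated through RefSeq (GRCh38.p14). Of the distinct symbols, some shared by several probes, 10076 were left as they were, 2285 were synonyms and changed, and 113 had several candidates and were kept. Probes of a gene were averaged. A gene was called past 2-fold where its log2 ratio was 1 or more in size, and counts stand beside the same counts over all genes. With 1 array per comparison there is no test, and precision is limited by the number of arrays. The summaries were tested on simulated data with planted values.

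All members could be named. Of the other lists, genes past 2-fold and the highest and lowest were named; JUP, CTNND1 and ZNRF3 were added after their values were seen. Members, lists and rules were chosen with earlier results of these data known. Alternatives were other thresholds, centring on ribosomal protein genes, a common spread, other rules for probes, genes measured on both arrays, and symbols as listed. Python 3.11.15, pandas 2.3.3, NumPy 2.4.6 and Matplotlib 3.10.9 were used.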

Additional observations from a re-analysis of the deposited data

How the results depend on the processing

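With a log2 threshold of 0.5, 10 members were past it after depletion (2 higher, 8 lower) and 10 after transfection (6 higher, 4 lower). Over all genes 12.8% were higher and 9.80% lower after depletion, and 13.1% and 9.40% after transfection. On both arrays, 2 members were past it with opposite signs following DPP4 and 1 with the same sign. The shares of all genes in these classes were not computed at this threshold, so these counts cannot be set against all genes. Of the other lists 39 and 33 genes were past it. With a threshold of 1.5, 1 member was past it after depletion (0 higher, 1 lower) and 0 after transfection (0 higher, 0 lower). Over all genes 1.21% were higher and 0.213% lower after depletion, and 1.51% and 0.235% after transfection. On both arrays, 0 members were past it with the same sign and 0 with signs following DPP4. Of the other lists 4 and 5 genes were past it, against 8 and 10 as reported. The list counts here are totals over all the lists, with no share given. Centring on ribosomal protein genes moved every value up by 0.33 after depletion and by 0.22 after transfection. It gave 2 members higher after depletion (790 higher and 43 lower over all genes, against 342 and 161), 0 lower after transfection (630 and 59, against 383 and 128), and 18 list genes past 2-fold after depletion. Member medians became 0.25 and 0.14, beside 0.34 and 0.23 over all genes. WNT9A after depletion (1.06) and CTNNB1 after transfection (1.12) were then past 2-fold. FRAT2 was short of it, as was DKK3 after transfection, while WNT7B, WNT10A and AXIN2 remained past it after depletion. Among genes measured on both arrays, 2 members were past 2-fold after depletion, 1 of them lower. A common spread, the median probe, the most extreme probe, each probe on its own and symbols as listed left the member counts on each array as reported; the counts over both arrays were recomputed under the first 3 of these, also with no difference. No paired analysis was possible because each comparison has 1 array.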

Other observations

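Several members lie next to each other in the genome by the RefSeq order of protein-coding genes, and some neighbours had unlike values. WNT10A (-1.40 after depletion) adjoins WNT6 (0.27 after depletion, -0.12 after transfection). WNT10B (0.01 and 0.46) adjoins WNT1 (0.05 and -0.09), and WNT3 (0.04 and -0.38) adjoins WNT9B (0.04 and 0.11). WNT9A (0.73 after depletion) is separated by 1 coding gene from WNT3A (-0.11 and -0.46). Apart from WNT10A with WNT6 and WNT9A with WNT3A after depletion, differences within these pairs after depletion were under the SD of 0.42 between probes of a gene. After transfection WNT10B with WNT1 and WNT3 with WNT9B differed by more than the SD of 0.45. That SD describes single probes, and a difference between probes varies more, so both differences after transfection are not resolved.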
